A study of Bos taurus with 12 samples.

Results

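On the sixth day of adipogenic differentiation (6 d), 55 mRNAs of bovine intramuscular preadipocytes stood above every level they had at 0, 3 and 9 d. They were selected on measured FPKM (fragments per kilobase of transcript, scaled to the mapped reads of the library): a gene was a member where its lowest 6 d library was at least 1 FPKM and at least 1.5 times the highest of the 9 libraries of 0, 3 and 9 d. The 55 members came from the 33714 rows of the mRNA table, 0.163% of them. Of all these rows, 10577 had a lowest 6 d FPKM of at least 1, and 0.52% of these were members. The same rule with another day in place of 6 d chose 461 genes at 0 d, 616 at 3 d and 93 at 9 d.

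The cells were preadipocytes that collagenase had freed from longissimus dorsi muscle; the donors were newborn Qinchuan cattle, and the medium was DMEM-F12 with 15% FBS. At 90% confluence they were induced with dexamethasone, 0.5 mM IBMX (an inhibitor of phosphodiesterases) and insulin, and after 48 hours they were kept in medium with insulin. The labels give the insulin as 5 μg/ml, and the study's methods give another dose. RNA of 12 libraries was sequenced, 3 each at 0 d, at the start of induction, and at 3, 6 and 9 d, all of which lie after the 48 hours with the full mixture. The labels name no genetic change and do not say whether the 3 libraries of a day came from separate cultures. The study's methods call the 3 of each day biological replicates. Each p-value given here measures the spread between these libraries.

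Preadipocytes are fibroblast-like cells, and on the way to a fat cell they change both the matrix around them and the actin bundles within them. Laminins build the sheet of matrix that lies against a cell, integrins and cadherins tie the cell to that matrix and to its neighbours, and smooth muscle actins with calponin, transgelin and myosin light chain kinase make and tense contractile bundles. Transforming growth factor beta raises many of these genes in fibroblasts, while dexamethasone and a rise in cyclic AMP act on others at the start of induction.

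The ratio that defined the members, their lowest 6 d value over the highest other value, was at least 1.52 and had a median of 2.07. It was at least 2 in 28 members, under 2 in 27 and at least 5 in 4. Mean levels at 6 d ranged from 1.58 FPKM for LOC101904396, a long noncoding RNA, to 4872 FPKM for the laminin chain LAMA4, with a median of 21.1. At 6 d, 16 members averaged at least 100 FPKM, 20 lay between 10 and 100, and 19 lay under 10. The coefficient of variation of a member at 6 d had a median of 6.55%, from 0.606% for ITGA8 to 29.2% for PPP1R1A. The rule uses the lowest 6 d library and so favours genes with a small spread at 6 d. Within 6 d, 13 members were highest in replicate 1, 27 in replicate 2 and 15 in replicate 3.

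At 6 d the members made up 0.929% to 0.956% of a library's FPKM. On day 0 this share was 0.303% to 0.311%, on day 3 it was 0.335% to 0.346% and on day 9 it was 0.418% to 0.437%. The order of 0 and 3 d rested on LAMA4. Without LAMA4 the members summed to 2277 to 2395 FPKM on day 0 and to 1343 to 1482 on day 3. On day 6 that sum was 7126 to 7675 FPKM, and on day 9 it was 2827 to 2903. In bulk samples such as these, fewer cells of a type and less RNA per cell cannot be told apart. The summed FPKM of a library ranged from 1221194 to 1371794, and the table gives no reads for a gene, so no counting interval is given for an FPKM value. By mean level, the day next to 6 d was 9 d for 37 members, 0 d for 13 and 3 d for 5. The lowest day was 3 d for 37 members, 0 d for 16 and 9 d for 2, so that most members stood lowest 3 days before their peak. These values of 6 d against other days chose the members and are given as a description.

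**Figure D1:**
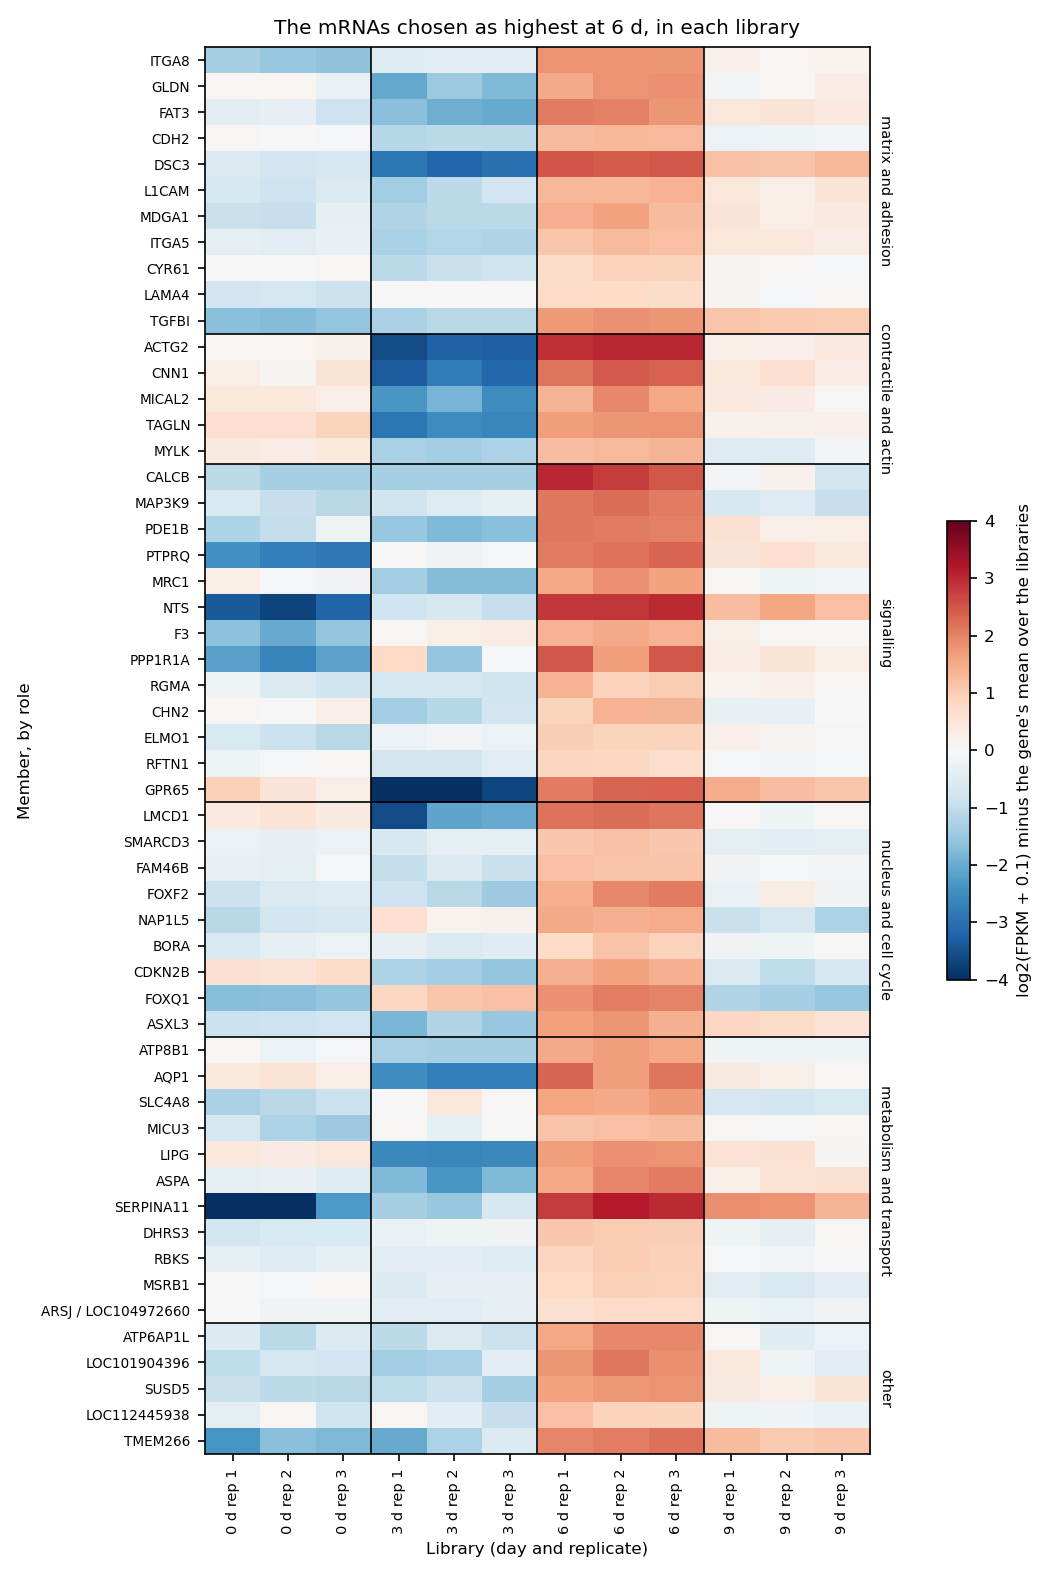
Level of 54 of the 55 members in each of the 12 libraries, as log2(FPKM + 0.1) minus the gene's mean over the libraries, grouped by role; colours stop at 4 log2 units on either side. The 3 libraries of 6 d are the highest in each line, as the rule requires, while of all 55 members 37 are lowest at 3 d and 16 at 0 d.

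Among the members just inside the threshold was TGFBI, with a ratio of 1.52, where the lowest 6 d library read 680.2 FPKM and the highest other library 446.9. GPR65 had a ratio of 1.54 (21.2 against 13.8 FPKM) and ASXL3 one of 1.55 (1.78 against 1.15 FPKM). Just outside lay DPYSL3, a regulator of the growing cytoskeleton, with a ratio of 1.499 (321 against 214 FPKM). The next were CREB3L1, a transcription factor released from the endoplasmic reticulum, with 1.491 (67.6 against 45.4 FPKM), and MBNL2, a splicing factor, with 1.486 (988 against 664 FPKM). These 3 genes were also highest at 6 d in 3 of 3 libraries, so the threshold divides a continuous range.

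Of the 55 names, 52 matched a gene of the RefSeq annotation of assembly ARS-UCD2.0, among them CYR61 and FAM46B under their newer symbols CCN1 and TENT5B. These were 51 protein-coding genes and 1 long noncoding RNA; CALCB, LOC112445938 and a row that joins the names ARSJ and LOC104972660 had no match. The joined row counts reads of both names, so its level cannot be given to ARSJ alone, and CALCB is the name of a further row that is no member. For the description that follows, the members were grouped by textbook function after their values had been seen. In this grouping 12 act in the matrix and in adhesion, 5 in the contractile actin apparatus and 13 in signalling. The nucleus and the cell cycle hold 9, metabolism and transport 11, and 5 had no role that could be placed. The counts by role are a description.

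The rule set 6 d against the other days together and put a ceiling on the 9 libraries of 0, 3 and 9 d, but it did not order those 3 days. The question of where the members stood before and after their peak was therefore tested among 0, 3 and 9 d. The test was limma on log2(FPKM + 0.1) over the 15402 genes that averaged at least 0.1 FPKM, and a gene was called where the log2 fold change was beyond 1 on either side and the adjusted p under 0.05. All 55 members were among the genes tested, which the rule guarantees; 54 also averaged at least 0.1 FPKM over the 9 other libraries, and CALCB did not.

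From 0 to 3 d, 28 of the 55 members were called, 50.9%, where 23.3% of all tested genes were called. They split into 10 higher (all genes 8.06%) and 18 lower (all genes 15.2%) at 3 d, and the members' median log2 fold change was -0.39 beside -0.06 for all tested genes. Between 0 and 9 d, 19 members were called, 34.5%, beside 10.9% of all genes. Of these, 18 were higher at 9 d (all genes 3.41%) and 1 was lower (all genes 7.47%), with a median of 0.49 beside -0.19. From 3 to 9 d, 29 members were called, 52.7%, beside 20.5% of all genes. There 27 were higher at 9 d (all genes 10.2%) and 2 lower (all genes 10.3%), with a median of 0.98 beside -0.13. CALCB is among the higher ones in both comparisons with 9 d, but it was tested only because its 6 d libraries carried it over the filter, so its calls support nothing. Without it 18 members were called between 0 and 9 d, 17 of them higher, and 28 from 3 to 9 d, 26 of them higher. The call of CALCB between 0 and 9 d was also lost without replicate 2 or 3 of 0 d (log2 0.96 each), replicate 1 (0.95) or replicate 2 (0.81) of 9 d, and that from 3 to 9 d without replicate 2 of 9 d (0.89).

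These 3 comparisons share libraries, so their counts are not independent of each other. The rule chose genes that vary between days, and how much of the members' larger share of calls comes with that choice was not tested. With a pseudocount of 1 in place of 0.1, which shrinks changes of genes under a few FPKM, the counts of members called were 18, 12 and 17 in the 3 comparisons in that order. Calls among all tested genes also became fewer with it. They were 738 higher and 1446 lower from 0 to 3 d, 311 and 577 between 0 and 9 d, and 1013 and 850 from 3 to 9 d. Rescaling the libraries by median ratios moved the median of all genes from -0.19 to close to 0 between 0 and 9 d and from -0.13 to -0.01 between 3 and 9 d, so that members' changes toward 9 d are best read against these medians. The split of all calls between 0 and 9 d also moved with it, from 525 higher and 1150 lower to 686 higher and 781 lower. From 3 to 9 d the split moved from 1574 higher and 1583 lower to 1823 higher and 1248 lower. The members called with rescaled libraries were 28, 21 and 34 in the 3 comparisons.

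**Figure D2:**
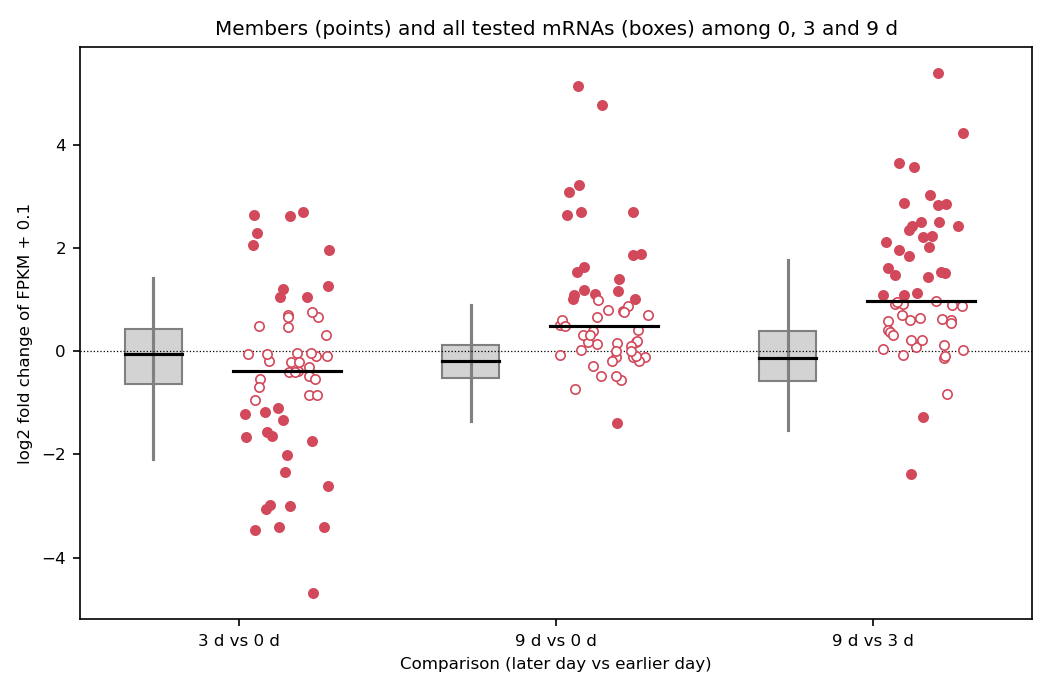
Log2 fold change of the 55 members (points, filled where called by limma) and of all 15402 tested genes (boxes with quartiles and median, whiskers from the 5th to the 95th percentile) in the comparisons among 0, 3 and 9 d. The members' medians (black bars) are -0.39 for 3 d against 0 d, 0.49 for 9 d against 0 d and 0.98 for 9 d against 3 d.

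The matrix and adhesion members include LAMA4, TGFBI, CYR61, ITGA8, ITGA5, CDH2, DSC3, FAT3, L1CAM, MDGA1 and GLDN. LAMA4, a laminin alpha chain found around vessels, muscle and fat cells, was the most abundant member, with 4875, 4950.2 and 4789.8 FPKM at 6 d, against 1696, 1763 and 1597 on day 0, 2852, 2850.1 and 2862 on day 3 and 3092, 2708 and 2943 on day 9. LAMA4 was thus high on every day, with no overlap between 6 d and the other days, and it was called in none of the 3 comparisons.

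TGFBI, a secreted protein named for its induction by transforming growth factor beta, joins integrins to collagen and read 680.2, 743 and 712 FPKM at 6 d, against 66.0, 63.3 and 69.8 on day 0, 85.5, 97.6 and 97.6 on day 3 and 447, 428 and 419.7 on day 9. CYR61, a matrix-bound ligand of integrins, read 572, 639 and 629 FPKM at 6 d, against 342, 345 and 356 on day 0, 162, 184 and 197 on day 3 and 364, 359 and 325 on day 9. TGFBI was low in all 6 libraries of 0 and 3 d and stood nearer its peak than its start at 9 d, whereas CYR61 was lowest at 3 d and overlapped at 9 d with 0 d. The rise of TGFBI between 0 and 9 d passed the test (log2 fold change 2.70, SE 0.07, limma adjusted p 4.41e-09) with no overlap between the days, and CYR61 was called in none of the 3 comparisons. CYR61 lay close to the threshold: it was called lower at 3 d than at 0 d without replicate 3 of 3 d (log2 -1.01). It was called higher at 9 d than at 3 d without that library (1.02), without replicate 3 of 9 d (1.00) and with rescaled libraries (1.08).

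Both integrin members are alpha chains that pair with ITGB1. ITGA8, a receptor for matrix proteins such as nephronectin, read 26.1, 25.8 and 25.8 FPKM at 6 d, against 2.88, 2.53 and 2.36 on day 0, 5.28, 5.52 and 5.51 on day 3 and 8.53, 7.91 and 8.26 on day 9. ITGA5, the alpha chain of the fibronectin receptor, read 455, 511 and 481 FPKM at 6 d, against 161, 156 and 169 on day 0, 84.9, 92.3 and 91.1 on day 3 and 282, 281 and 259 on day 9. Their order of days differed: ITGA8 stood higher on each later day up to 6 d, and ITGA5 dipped at 3 d. ITGA8 was called higher at 3 d than at 0 d (log2 fold change 1.05, SE 0.08, limma adjusted p 1.54e-06) and higher at 9 d than at 0 d (log2 fold change 1.64, SE 0.08, limma adjusted p 2.50e-07), with no overlap in either case. The change to 3 d lay close to the threshold and was not called without replicate 3 of 0 d (log2 0.98) or with a pseudocount of 1 (0.84). For ITGA5 the call was between 3 and 9 d (log2 fold change 1.61, SE 0.06, limma adjusted p 1.55e-08), again with each 9 d library above each 3 d library.

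CDH2, or N-cadherin, which joins mesenchymal cells to each other, read 12.3, 12.7 and 12.5 FPKM at 6 d, against 5.21, 5.06 and 4.92 on day 0, 2.24, 2.34 and 2.35 on day 3 and 4.3, 4.37 and 4.64 on day 9. DSC3, a desmosomal cadherin known from stratified epithelia, read 12.3, 11.5 and 11.9 FPKM at 6 d, against 1.35, 1.15 and 1.25 on day 0, 0.19, 0.14 and 0.17 on day 3 and 4.78, 4.59 and 5.24 on day 9. FAT3, a giant cadherin that helps shape cell polarity, read 330.0, 317 and 266 FPKM at 6 d, against 57.2, 61.2 and 43.3 on day 0, 24.0, 20.2 and 19 on day 3 and 107, 112 and 102 on day 9. In all 3 cadherins the 3 d libraries were the lowest and the 6 d libraries the highest, with no overlap of either with another day. DSC3 had 1 of the 3 largest rises of any member from 3 to 9 d (log2 fold change 4.22, SE 0.10, limma adjusted p 7.22e-10), with 3 of 3 libraries above those of 3 d. That ranking is given for the pseudocount of 0.1, and with a pseudocount of 1 the rise was 2.33.

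L1CAM, an adhesion molecule of growing axons, read 3.99, 3.98 and 4.22 FPKM at 6 d, against 0.95, 0.83 and 0.99 on day 0, 0.52, 0.7 and 0.86 on day 3 and 2.15, 1.84 and 2.23 on day 9. GLDN, or gliomedin, which gathers sodium channels at nodes of nerve fibres, read 1.57, 1.92 and 1.98 FPKM at 6 d, against 0.52, 0.52 and 0.38 on day 0, 0.04, 0.11 and 0.07 on day 3 and 0.44, 0.5 and 0.61 on day 9. A further member of this role, MDGA1, a membrane-anchored protein that binds neuroligins, had means of 2.65 FPKM on day 0, 1.94 on day 3, 12.1 on day 6 and 5.73 on day 9. All 3 stayed under 14 FPKM and were lowest at 3 d. Of the 12 matrix and adhesion members, 8 were called higher at 9 d than at 3 d, 7 higher at 9 d than at 0 d, 4 lower at 3 d than at 0 d and 1, ITGA8, higher. Of all genes tested, 10.2%, 3.41%, 15.2% and 8.06% were called so, in that order. Some of the members' calls depended on the pseudocount. With a value of 1, FAT3 (log2 0.99), L1CAM (0.67) and MDGA1 (0.89) were not called between 0 and 9 d, nor L1CAM (0.86) and GLDN (0.50) between 3 and 9 d. From 0 to 3 d DSC3, CDH2, GLDN and ITGA8 were not called with it. FAT3 stood at the threshold between 0 and 9 d (log2 1.00) and also lost that call without replicate 3 of 0 d or without replicate 1 or 2 of 9 d, as MDGA1 did without replicate 2 of 0 d.

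**Figure D3:**
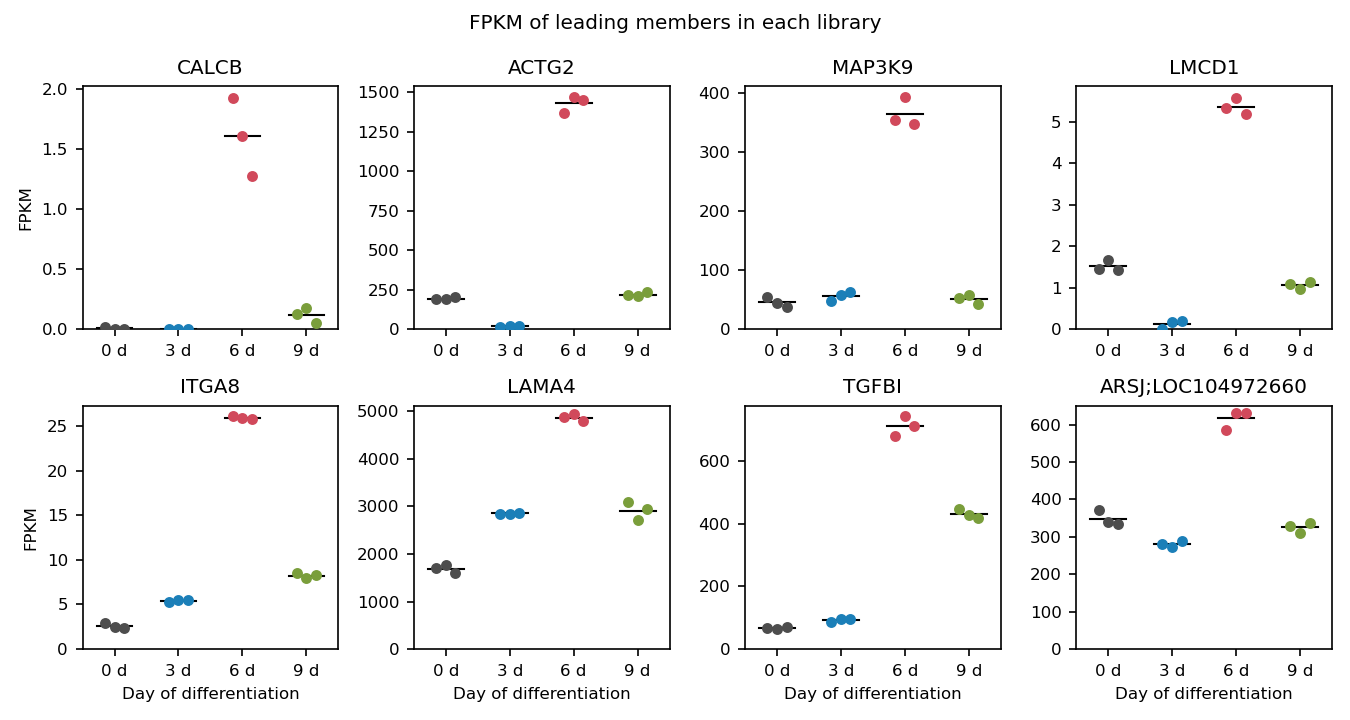
FPKM of 8 members in each library by day (points; each line is the mean of a day). In every panel the 3 libraries of 6 d lie above the 9 others, with CALCB at 1.28 to 1.93 FPKM and LAMA4 at 4789.8 to 4950.2 FPKM.

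Other genes of these families were read from lists that hold members and nonmembers, in the steps into and out of the peak, from 3 to 6 d and from 6 to 9 d. These 2 steps share the 6 d libraries, and the members in a list were chosen on the same contrasts, so members are counted apart. In the step to 6 d, 9.85% of all genes tested rose and 9.23% fell past the thresholds, and in the step to 9 d 2.55% rose and 1.89% fell. The median log2 fold changes of all tested genes were -0.09 and -0.04. Over the 44 lists, 238 genes were called higher and 187 lower in the first of these steps, and 100 higher and 72 lower in the other; 9 lists held a member, 16 members stood in a list and 39 in none.

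Of 56 matrix glycoproteins tested, 21 were called higher and 6 lower in the step to 6 d, with a median of 0.40. The member LAMA4 was not called, and among the 54 nonmembers 20 were higher and 6 lower. With rescaled libraries the list gave 21 higher and 5 lower. From 6 to 9 d the list had 7 higher and 7 lower, and its nonmembers 7 and 6, with a list median of 0.24. The list gave 4 and 7 with the replicate block, 5 and 7 without replicate 1 of 6 d, and 8 and 7 with rescaled libraries.

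Of 69 tested genes of axon guidance and adhesion, 24 were called higher and 14 lower at 6 d than at 3 d, ITGA8, CDH2 and ITGA5 among the higher, with a median of 0.01; with rescaled libraries the split was 25 and 12. The step to 9 d gave 11 higher and 4 lower, ITGA8 and CDH2 among the lower, with a median of 0.25. ITGB1, the shared beta chain of both integrin members and picked for that after its values were seen, read 100.3, 167 and 118 FPKM on day 0, 49.7, 48.2 and 50.0 on day 3, 154, 157 and 152 on day 6 and 128, 171 and 113 on day 9. Its 6 d libraries lay above those of 3 d (log2 fold change 1.64, SE 0.18, limma adjusted p 4.25e-05), as those of its alpha chains did. Of 30 tested genes of the transforming growth factor beta pathway, 12 were called higher and 2 lower at 6 d than at 3 d, and 13 and 1 with rescaled libraries. With a pseudocount of 1 this count went from 14 to 9 genes, all higher. Without the members TGFBI and CYR61 these were 10 higher and 2 lower of 28. From 6 to 9 d the list had 1 gene called higher, LTBP3, and 2 lower, SKIL and TGFB2, with medians of 0.47 and 0.04 in the 2 steps.

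The contractile and actin members were ACTG2, TAGLN, CNN1, MYLK and MICAL2. ACTG2, the gamma actin of smooth muscle, read 1370.0, 1468 and 1453 FPKM at 6 d, against 189, 191 and 203 on day 0, 15, 19.2 and 18.6 on day 3 and 214, 208 and 236 on day 9. CNN1, or calponin, which binds actin and slows myosin, read 42.3, 51.9 and 48.3 FPKM at 6 d, against 11.5, 10.3 and 13.7 on day 0, 0.84, 1.28 and 0.97 on day 3 and 12.7, 14.9 and 11.7 on day 9. TAGLN, or transgelin, which bundles actin, read 429, 456 and 459 FPKM at 6 d, against 215, 211 and 245 on day 0, 18.1, 23.3 and 21.8 on day 3 and 149, 149 and 154 on day 9. In each of the 3 the 3 d libraries lay far under all others and the 6 d libraries far above, so that the level went down, up and down again over the course.

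MYLK, the kinase that switches on smooth muscle myosin, read 105, 111 and 116 FPKM at 6 d, against 57.8, 55.6 and 60.9 on day 0, 18.2, 17.7 and 19.3 on day 3 and 31.4, 32.1 and 41.8 on day 9. MICAL2, an enzyme that oxidises actin and thereby frees the transcription cofactor MRTF, had means of 53.9 FPKM on day 0, 8.84 on day 3, 129 on day 6 and 49.8 on day 9. All 5 members of this role were lowest at 3 d, and all 5 were called lower at 3 d than at 0 d, where 15.2% of all genes tested were. Of the members' falls, those of ACTG2 (log2 fold change -3.46, SE 0.09, limma adjusted p 9.71e-10) and TAGLN (log2 fold change -3.41, SE 0.09, limma adjusted p 1.16e-09) were among the 3 largest, with 3 of 3 libraries of 3 d under those of 0 d. At 9 d ACTG2 was above 3 d (log2 fold change 3.64, SE 0.09, limma adjusted p 1.09e-09) in 3 of 3 libraries. In that direction 4 of the 5 were called, beside 10.2% of all genes tested. MYLK was not, though with rescaled libraries it was called too (log2 1.05).

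The list of smooth muscle contractile genes, 28 of them tested, had 14 called higher and 2 lower at 6 d than at 3 d, and 15 and 1 with rescaled libraries. Its median was 1.29, and 0.85 without the 4 members it holds (ACTG2, CNN1, TAGLN, MYLK). Those 4 were all called higher, which leaves 10 higher and 2 lower, ACTC1 and TAGLN3, among 24 nonmembers. From 6 to 9 d, 8 were called, all of them lower, also with rescaled libraries, and the median was -0.63. The 8 were the 4 members and the nonmembers ACTA2, SYNPO2, LMOD1 and TPM2.

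ACTA2, the alpha actin of smooth muscle and named after its values were seen, read 1642, 1674 and 1776 FPKM on day 0, 24.6, 28.9 and 26.9 on day 3, 1504, 1629 and 1617 on day 6 and 596, 568 and 629 on day 9. It was low at 3 d and high again at 6 d as ACTG2 was, but its 6 d libraries lay just under those of 0 d, and so it missed the rule. Its change from 3 to 6 d (log2 fold change 5.88, SE 0.07, limma adjusted p 1.36e-11) and the fall from 6 to 9 d (log2 fold change -1.41, SE 0.07, limma adjusted p 1.04e-06) both held in 3 of 3 libraries. ACTC1 had a log2 fold change of the other sign between 3 and 6 d (-1.05), which with rescaled libraries was -0.96 and not called. TAGLN3 read 73.1, 91.2 and 77.0 FPKM at 3 d and 0.34, 0 and 0 at 6 d.

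**Figure D4:**
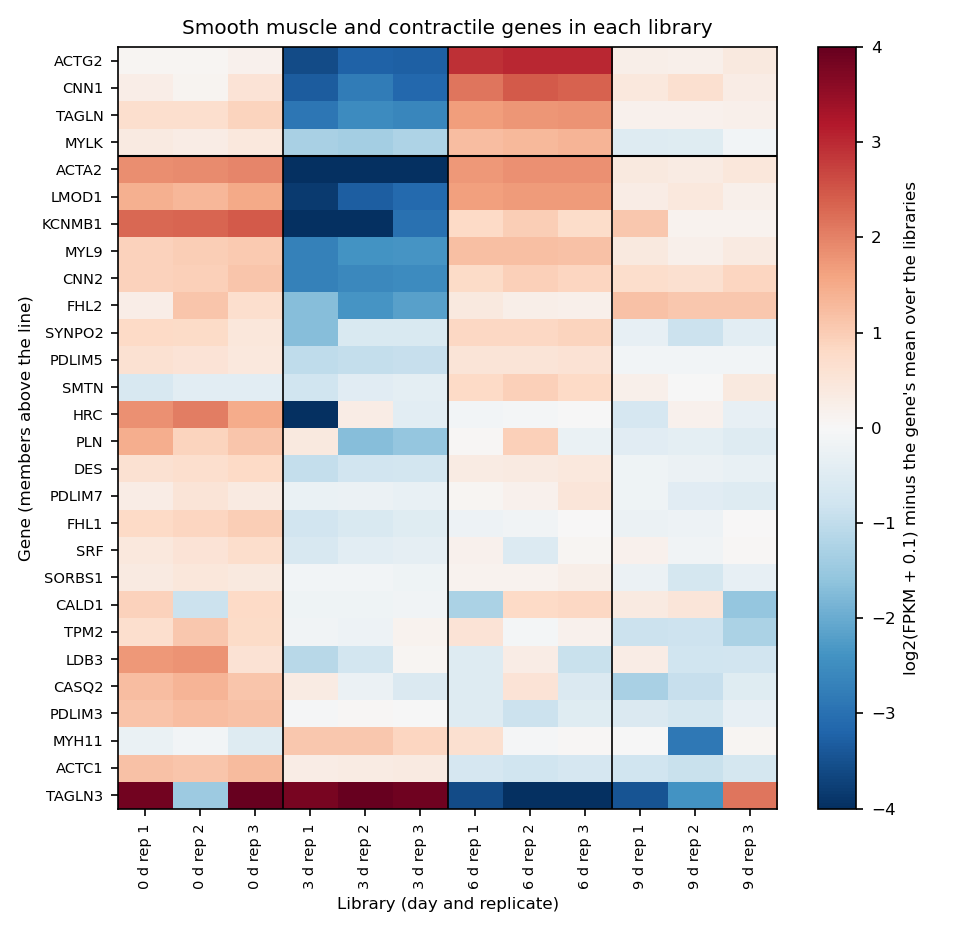
Level of the tested smooth muscle contractile genes in the 12 libraries, as log2(FPKM + 0.1) minus the gene's mean; the members ACTG2, CNN1, TAGLN and MYLK stand above the line and colours stop at 4 log2 units on either side. In the step to 6 d, 14 of the 28 were called higher and 2 lower (15 and 1 with rescaled libraries), and 8 were called lower in the step to 9 d.

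The signalling members were the peptides NTS and CALCB, the receptors and surface proteins GPR65, RGMA, MRC1, PTPRQ and F3, and the intracellular proteins MAP3K9, PPP1R1A, PDE1B, RFTN1, ELMO1 and CHN2. NTS encodes neurotensin, a peptide that promotes fat uptake in the gut, and read 92.5, 94.9 and 104 FPKM at 6 d, against 1.17, 0.91 and 1.33 on day 0, 7.41, 8.33 and 6.87 on day 3 and 30.7, 39.1 and 30.1 on day 9. CALCB encodes a calcitonin gene-related peptide, which widens vessels, and read 1.93, 1.61 and 1.28 FPKM at 6 d, against 0.02, 0 and 0 on day 0, 0, 0 and 0 on day 3 and 0.13, 0.18 and 0.05 on day 9. NTS climbed on each day to 6 d, while CALCB was listed at 0 in 5 of the 6 libraries of 0 and 3 d and never passed 2 FPKM. NTS had 1 of the 3 largest rises from 0 to 3 d (log2 fold change 2.64, SE 0.14, limma adjusted p 1.68e-07) and from 0 to 9 d (log2 fold change 4.76, SE 0.14, limma adjusted p 1.63e-08), each in 3 of 3 libraries.

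GPR65, a receptor that senses protons and raises cyclic AMP, read 21.2, 25.1 and 25.4 FPKM at 6 d, against 9.57, 7.02 and 5.93 on day 0, 0.1, 0.21 and 0.29 on day 3 and 13.8, 11.8 and 10.7 on day 9. Its 3 d libraries were near 0 and its 9 d libraries above those of 0 d. It had the largest fall of any member from 0 to 3 d (log2 fold change -4.69, SE 0.24, limma adjusted p 1.19e-07), in 3 of 3 libraries. Its rise from 3 to 9 d (log2 fold change 5.39, SE 0.24, limma adjusted p 5.50e-08), also in 3 of 3, was the largest of any member. Both rankings hold for the pseudocount of 0.1 alone. With a pseudocount of 1 the fall of GPR65 was -2.81 beside -3.40 for ACTG2, and the rise was 3.44 beside 3.57 for ACTG2. PTPRQ, a receptor phosphatase that acts on phosphoinositides, read 11.4, 11.9 and 13.5 FPKM at 6 d, against 0.4, 0.3 and 0.27 on day 0, 2.6, 2.32 and 2.49 on day 3 and 3.71, 4.22 and 3.52 on day 9. MRC1, the mannose receptor, read 2.02, 2.5 and 2.13 FPKM at 6 d, against 0.78, 0.61 and 0.56 on day 0, 0.18, 0.12 and 0.12 on day 3 and 0.65, 0.55 and 0.57 on day 9. PTPRQ was lowest at 0 d and MRC1 at 3 d. For PTPRQ the rises from 0 d passed the test at 3 d (log2 fold change 2.61, SE 0.13, limma adjusted p 7.25e-08) and at 9 d (log2 fold change 3.22, SE 0.13, limma adjusted p 8.67e-08), in 3 of 3 libraries each time. MRC1 is also widely used to mark macrophages, whose part in its level was not tested.

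MAP3K9, a kinase that feeds the JNK pathway, read 354, 393 and 346 FPKM at 6 d, against 54.1, 43.6 and 38.4 on day 0, 47.3, 57.9 and 63.7 on day 3 and 53.2, 57.9 and 43.3 on day 9. RFTN1, or raftlin, which organises lipid rafts, read 422, 409 and 374 FPKM at 6 d, against 199, 218 and 238 on day 0, 138, 140.3 and 174 on day 3 and 219, 217 and 222 on day 9. PDE1B, a calcium-activated phosphodiesterase that breaks down cyclic nucleotides, read 5.18, 5.01 and 4.84 FPKM at 6 d, against 0.42, 0.53 and 0.95 on day 0, 0.33, 0.26 and 0.28 on day 3 and 1.76, 1.34 and 1.38 on day 9. The 9 libraries of the other days overlapped in MAP3K9, which was called in none of the 3 comparisons; RFTN1 dipped at 3 d, and PDE1B was lowest there and higher at 9 d than at 0 d. PPP1R1A, which inhibits a protein phosphatase once protein kinase A has phosphorylated it, read 41.9, 23.9 and 42.3 FPKM at 6 d, against 1.56, 1.11 and 1.6 on day 0, 13.0, 2.49 and 7.06 on day 3 and 9.19, 10.9 and 8.96 on day 9. Its 3 d libraries were spread widely, from 2.49 to 13.0 FPKM, and overlapped those of 9 d.

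The other signalling members had 6 d means of 12.4 FPKM for F3, the tissue factor that starts clotting, 18.9 for RGMA, a coreceptor for bone morphogenetic proteins, 16.8 for ELMO1, which helps to switch on RAC, and 5.26 for CHN2, which switches RAC off. F3 stood at 1.41, 1.05 and 1.45 FPKM on day 0 and at 4.86, 5.34 and 5.64 on day 3, which it also held at 9 d with 5.36, 4.71 and 4.75. Its 3 d and 9 d libraries overlapped, and both days lay above 0 d without overlap. Of the 13 signalling members, 4 were called higher and 3 lower at 3 d than at 0 d, 6 higher at 9 d than at 0 d and 5 higher at 9 d than at 3 d. CALCB was in both of the last 2 counts. Of all genes tested, 8.06%, 15.2%, 3.41% and 10.2% were called so, in that order. Lost with a pseudocount of 1 were the calls of MRC1 (log2 -0.53) and CHN2 (-0.75) between 0 and 3 d, and of PDE1B (0.62) and CALCB (0.15) between 0 and 9 d. Between 3 and 9 d those of PDE1B (0.95), MRC1 (0.48) and CALCB (0.16) were lost. PDE1B also lost its call between 0 and 9 d without replicate 1 of 0 d (log2 0.96).

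The nuclear and cell cycle members were FOXF2, FOXQ1, SMARCD3, ASXL3, LMCD1, CDKN2B, BORA, NAP1L5 and FAM46B. FOXF2, a forkhead transcription factor of mesenchyme, read 4.91, 6.84 and 7.63 FPKM at 6 d, against 0.91, 1.12 and 1.19 on day 0, 0.93, 0.75 and 0.57 on day 3 and 1.42, 2.15 and 1.55 on day 9. FOXQ1, a forkhead factor next to it in the genome, read 6.76, 7.88 and 7.54 FPKM at 6 d, against 0.49, 0.51 and 0.56 on day 0, 3.38, 4.05 and 4.35 on day 3 and 0.74, 0.68 and 0.58 on day 9. Outside 6 d they differed: FOXF2 was next highest at 9 d, and FOXQ1 was next highest at 3 d and back near its 0 d level at 9 d. FOXQ1 had the largest rise of any member from 0 to 3 d (log2 fold change 2.69, SE 0.12, limma adjusted p 4.14e-08), in 3 of 3 libraries. It also had the larger of the members' 2 called falls from 3 to 9 d (log2 fold change -2.39, SE 0.12, limma adjusted p 1.20e-07), again in 3 of 3.

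LMCD1, a LIM protein that restrains GATA factors, read 5.33, 5.59 and 5.19 FPKM at 6 d, against 1.46, 1.67 and 1.43 on day 0, 0, 0.18 and 0.2 on day 3 and 1.09, 0.96 and 1.13 on day 9. SMARCD3, a subunit of the BAF complex that remodels chromatin, read 18.2, 19.3 and 18.1 FPKM at 6 d, against 7.22, 6.7 and 7.11 on day 0, 5.37, 6.41 and 6.58 on day 3 and 6.54, 6.31 and 6.52 on day 9. LMCD1 went down to near 0 at 3 d, while SMARCD3 lay between 5.37 and 7.22 FPKM in all 9 libraries of the other days. NAP1L5, a relative of nucleosome assembly proteins, read 8.27, 7.79 and 8.1 FPKM at 6 d, against 1.26, 1.62 and 1.69 on day 0, 4.6, 3.16 and 3.24 on day 3 and 1.48, 1.76 and 1.12 on day 9. Like FOXQ1 it was next highest at 3 d. Its fall from 3 to 9 d was called (log2 fold change -1.28, SE 0.19, limma adjusted p 2.64e-04) in 3 of 3 libraries. With a pseudocount of 1 the log2 fold change was -0.92 and was not called.

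CDKN2B, an inhibitor of the kinases that take a cell past the start of its cycle, read 28.1, 32.1 and 28.1 FPKM at 6 d, against 16.6, 15.6 and 17.5 on day 0, 4.45, 4.06 and 3.56 on day 3 and 7.01, 5.18 and 6.67 on day 9. It was the only member called lower at 9 d than at 0 d (log2 fold change -1.40, SE 0.13, limma adjusted p 1.85e-05), in 3 of 3 libraries, so that its peak was followed by a level under the start. The remaining members of this role had 6 d means of 21.1 FPKM for BORA, which activates Aurora A at mitosis, 8.38 for FAM46B, a poly(A) polymerase, and 2.07 for ASXL3, a chromatin protein. BORA and FAM46B were called in none of the 3 comparisons. Of 66 tested genes of the list of nuclear receptors and transcription factors, 7 were called higher, FOXF2 among them, and 12 lower at 6 d than at 3 d (7 and 11 with rescaled libraries). At 9 d, 2 were higher and 3 lower than at 6 d, FOXF2 and FOXQ1 among the lower. Its medians of -0.09 and -0.06 were those of all genes to within 0.1.

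A further 11 members act in metabolism and transport. ATP8B1, a flippase that moves phospholipids across the plasma membrane, read 346, 389.6 and 352 FPKM at 6 d, against 124, 102 and 117 on day 0, 49.6, 47.9 and 48.7 on day 3 and 107, 106 and 108 on day 9. MSRB1, a selenoprotein that repairs oxidised methionine, read 414, 467 and 453 FPKM at 6 d, against 239, 224 and 253 on day 0, 164, 189 and 189 on day 3 and 176, 158 and 176 on day 9. The joined row of ARSJ, a sulfatase, and LOC104972660 read 586, 631 and 632 FPKM at 6 d, against 371, 339.7 and 334 on day 0, 279.9, 272 and 290.0 on day 3 and 329, 311 and 336 on day 9. ATP8B1 dipped at 3 d and was back at its 0 d level at 9 d, and MSRB1 was lowest at 9 d.

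DHRS3, which turns retinal back to retinol, read 135, 127 and 126 FPKM at 6 d, against 37.8, 41.3 and 41.8 on day 0, 52.4, 56.5 and 57.2 on day 3 and 56.3, 48.7 and 66.2 on day 9. AQP1, a water channel, read 3.23, 2.02 and 2.85 FPKM at 6 d, against 0.8, 0.87 and 0.7 on day 0, 0.02, 0 and 0 on day 3 and 0.75, 0.69 and 0.59 on day 9. SERPINA11, a secreted member of the serpin family, read 20.5, 26.6 and 23.5 FPKM at 6 d, against 0.08, 0.08 and 0.5 on day 0, 1.08, 0.93 and 1.79 on day 3 and 10.6, 10.2 and 7.46 on day 9. DHRS3 lay between 37.8 and 66.2 FPKM on the other days, AQP1 was at or next to 0 at 3 d, and SERPINA11 climbed from near 0 at 0 d. SERPINA11 had the largest rise of any member from 0 to 9 d (log2 fold change 5.13, SE 0.43, limma adjusted p 1.15e-05), in 3 of 3 libraries, though its 0 d libraries were uneven, with 1 of the 3 at 0.5 FPKM and the other two at 0.08.

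LIPG, a lipase that releases fatty acids from lipoproteins, read 70.8, 78.8 and 76.8 FPKM at 6 d, against 29.9, 27.7 and 30.2 on day 0, 3.59, 3.5 and 3.58 on day 3 and 33.2, 33.8 and 23.7 on day 9. It was 1 of the 4 members of this role called lower at 3 d than at 0 d (log2 fold change -3.00, SE 0.12, limma adjusted p 1.81e-08) and 1 of the 5 called higher at 9 d than at 3 d, in 3 of 3 libraries each, and its 9 d libraries spread across the range of 0 d. Of all genes tested, 15.2% were called lower in the first of these comparisons and 10.2% higher in the other. The other members had 6 d means of 167 FPKM for MICU3, which tunes calcium uptake by mitochondria, 55.2 for SLC4A8, a bicarbonate transporter, 28.9 for RBKS, which phosphorylates ribose, and 1.78 for ASPA, which frees acetate from acetylaspartate. SLC4A8 and MICU3 were called higher at 3 d than at 0 d, with SERPINA11, and ASPA lower, with LIPG, AQP1 and ATP8B1. The call of MICU3 was lost without replicate 2 (log2 0.97) or 3 (0.88) of 0 d and without replicate 1 (0.96) or 3 (0.98) of 3 d. With a pseudocount of 1 the calls of SERPINA11 (0.89), AQP1 (-0.83) and ASPA (-0.32) between 0 and 3 d were lost, and with a mean of at least 1 FPKM required ASPA was not tested. Between 3 and 9 d the calls of AQP1 (0.73) and ASPA (0.64) were lost with a pseudocount of 1.

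The 5 members with no placed role were ATP6AP1L, SUSD5, TMEM266, LOC112445938 and LOC101904396. ATP6AP1L, named for its likeness to a subunit of the vacuolar proton pump, read 3.62, 4.71 and 4.71 FPKM at 6 d, against 0.77, 0.5 and 0.78 on day 0, 0.52, 0.75 and 0.61 on day 3 and 1.23, 0.81 and 0.98 on day 9. Its libraries of 0, 3 and 9 d lay between 0.5 and 1.23 FPKM, with overlap between 0 and 3 d, and it was called in none of the 3 comparisons. SUSD5, a sushi domain protein, had a 6 d mean of 3.13 FPKM, TMEM266, a membrane protein with a voltage sensor, one of 2.95, LOC112445938 one of 7.30 and LOC101904396 one of 1.58. SUSD5 and TMEM266 were called higher at 9 d than at 0 d and than at 3 d. With a pseudocount of 1 SUSD5 lost both calls (log2 0.65 and 0.66).

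In all, 39 members were called in at least 1 of the comparisons among 0, 3 and 9 d and 16 in none, with CALCB counted among the former. The 16 were MAP3K9, ATP6AP1L, LOC101904396, SMARCD3, FAM46B, DHRS3, RBKS, LOC112445938, BORA, RGMA, MSRB1, ELMO1, the joined row of ARSJ and LOC104972660, CYR61, RFTN1 and LAMA4. Besides CYR61, 2 of the 16 lay close to the threshold. ELMO1 was called higher at 9 d than at 0 d without replicate 1 of 0 d (log2 1.11) or replicate 3 of 9 d (1.02) and with rescaled libraries (1.18). LOC101904396 was called higher at 9 d than at 3 d without replicate 3 of 3 d (1.28), replicate 2 of 9 d (1.04) or replicate 3 of 9 d (1.16), and with rescaled libraries (1.06). A gene that was not called is not shown to have had the same level on the days compared.

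Smaller lists held 1 member each. Of 31 tested genes of prostaglandin, steroid and retinoid metabolism, 7 were called higher, DHRS3 among them, and 8 lower at 6 d than at 3 d (8 and 8 with rescaled libraries). In the step to 9 d, 7 were higher and 2 lower, DHRS3 among the lower. Of 45 tested ion channels and transporters, 8 were called higher, AQP1 among them, and 7 lower in the step to 6 d (9 and 7 with rescaled libraries, 4 and 5 with a pseudocount of 1). In the step to 9 d, 3 were higher and 2 lower, AQP1 among the lower (2 and 1 with a pseudocount of 1). Of 13 tested neural and glial genes, 4 were called higher, L1CAM among them, and 2 lower at 6 d than at 3 d, and 1 was lower at 9 d than at 6 d. Of 10 tested pericyte genes, 3 were called higher, CNN1 among them, and 4 lower in the step to 6 d, and 1 higher and 3 lower in the step to 9 d, CNN1 among the lower.

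Since several members are known from other cell types, marker lists of 8 cell types were read in the same libraries; their part in the members' values was not tested. Of 8 adipocyte markers 6 were in the table, and PLIN1 and PPARG were not. They summed to 10.1 to 10.9 FPKM on day 0, 97.3 to 108 on day 3, 37.7 to 39.4 on day 6 and 31.7 to 40.3 on day 9. The most abundant of them was LPL at 0 d, FABP4 at 3 and 6 d, with means of 91.1 and 26.4 FPKM, and LEP at 9 d. ADIPOQ read 1.64, 0.22 and 0.24 FPKM at 6 d, and LEP read 2.17, 2.39 and 2.47 on day 0, 0, 0.21 and 0 on day 3, 9.97, 8.6 and 5.5 on day 6 and 25.3, 16.6 and 19.6 on day 9. The libraries, whose labels say adipocytes, thus had a sum of adipocyte markers that was higher on every day after induction than at 0 d and highest at 3 d. The single markers did not all follow this sum. ADIPOQ, FABP4 and CIDEC had a higher mean on each later day than at 0 d. LPL had means of 4.53 FPKM on day 0, 10.6 on day 3, 3.03 on day 6 and 6.34 on day 9. CEBPA had 0.09, 0.22, 0.07 and 0.05 in the same order, and LEP was lower at 3 d than at 0 d. All 8 markers of intramuscular progenitors or fibroblasts were in the table and summed to 116284 to 123626 FPKM on day 0, 167313 to 175138 on day 3, 130427 to 134894 on day 6 and 212248 to 225418 on day 9, mostly from COL3A1. The next was the proteoglycan DCN, with means of 9949 FPKM on day 0, 42430.4 on day 3, 31464 on day 6 and 44464 on day 9.

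The 6 epithelial markers, read because of DSC3, summed to 2.6 to 2.98 FPKM on day 6, the lowest of the 4 days, and to 8.82 to 10.2 on day 0. EPCAM, KRT5 and KRT14 were at 0 in all 12 libraries, and CDH1 was the most abundant, with 2.58, 2.29 and 2.34 FPKM at 6 d. The 8 blood and immune markers, read because of MRC1 and GPR65, summed to 1.1 to 1.34 FPKM on day 0, 3.38 to 3.69 on day 3, 1.82 to 1.87 on day 6 and 2.2 to 3.36 on day 9. Of these, PTPRC, TYROBP and HBB were at 0 throughout and CD14 was the most abundant, with 1.25, 1.32 and 1.24 FPKM at 6 d. The 8 endothelial markers, read because of LIPG and AQP1, summed to at most 3.8 FPKM in any library, with 2.61 to 2.96 on day 6 and VWF the most abundant, with 1.95, 1.8 and 2.14 FPKM at 6 d, and PECAM1 was at most 0.03. The part of such cells in the levels of DSC3, MRC1, GPR65, LIPG and AQP1 was not tested.

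The 6 pericyte markers, read because of the contractile members, summed to 267 to 279.9 FPKM on day 0, 538 to 623 on day 3, 124 to 133 on day 6 and 143 to 155 on day 9, with RGS5 at most 0.16 in any library. The most abundant was KCNJ8 at 3 d, with a mean of 485 FPKM, and CSPG4 on the other days. CSPG4 had means of 201 FPKM on day 0, 8.71 on day 3, 47.1 on day 6 and 82.6 on day 9, and NOTCH3 had 46.6, 3.59, 18.2 and 16.0 in the same order. MCAM had a mean of 17.5 FPKM and ABCC9 one of 61.9 on day 3. By the means of each day CSPG4 and NOTCH3 were lowest at 3 d and highest at 0 d, KCNJ8, MCAM and ABCC9 were highest at 3 d, and none of the 5 was highest at 6 d. The 6 glial and neural markers summed to 215 to 258 FPKM on day 0, 69.5 to 122 on day 3, 228 to 315 on day 6 and 98.8 to 121 on day 9, mostly from NCAM1, an adhesion molecule that muscle precursors also make. SOX10 was at most 0.01 in any of the 12 libraries. The skeletal muscle markers, 7 of 8 in the table with PAX7 missing, summed to 454 to 521 FPKM on day 0, 146 to 156 on day 3, 68.9 to 96.3 on day 6 and 88.6 to 126 on day 9, with MYOD1 the most abundant. Markers of skeletal muscle were thus present in these preadipocyte cultures and lower on each later day than at 0 d.

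Position in the genome was a property the rule did not use, but how often genes chosen in this way are neighbours was not tested. In the RefSeq annotation of ARS-UCD2.0, 3 pairs of members had no protein-coding gene between them: FOXF2 and FOXQ1, DSC3 and CDH2, and PPP1R1A and PDE1B. ITGA5 lay on from PDE1B after NCKAP1L and GTSF1, which both stayed at or under 0.11 FPKM in all 12 libraries. On the other days these neighbours differed in places: at 3 d FOXQ1 was higher than at 0 d and FOXF2 was not, and PPP1R1A had a higher mean than at 0 d and PDE1B a lower one. DSC3 and CDH2 were both called lower at 3 d than at 0 d, and with a pseudocount of 1 neither was (log2 -0.95 and -0.87).

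CircRNAs, closed RNAs that form when a later exon is spliced back to an earlier one, gave a readout that the rule did not use. The labels describe poly(A) selection, which would remove most circRNAs, and the study's methods describe rRNA depletion, so how far the library preparation lowered their reads is not known. Of the 55 members, 20 hosted at least 1 of the 14070 circRNAs in the table and 35 hosted none. Together they hosted 68 circRNAs, of which 27 had a single read, and the median was 2 reads over the 12 libraries. A library held 5358 to 10729 back-spliced reads in all, and 11 to 38 of these came from member hosts. At 6 d these were 15, 36 and 21 reads, against 12, 12 and 16 on day 0, 11, 17 and 17 on day 3 and 25, 24 and 38 on day 9. As a share of a library's back-spliced reads they were 0.237%, 0.672% and 0.264% at 6 d and 0.154% to 0.354% on the other days, so that 2 of the 3 libraries of 6 d lay within the range of the others.

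By host, ATP8B1 had 49 reads in 3 circRNAs, LAMA4 45 in 20 and BORA 41 in 5. The circRNA with the most reads was circRNA2752 of ATP8B1, with 44, of which 9 came on day 0, 3 on day 3, 10 on day 6 and 22 on day 9. It was thus most often read at 9 d, after its host's peak. circRNA6823 of BORA had 13 reads, 0, 3, 4 and 6 on the 4 days in order, and circRNA1787 of BORA had 12, as 4, 1, 3 and 4. circRNA6590 of LAMA4 had 11 reads, as 0, 6, 3 and 2. None of these 4 was called between 6 d and the mean of the other days.

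Of the 68, the 12 with at least 5 reads were tested with edgeR at 6 d against the mean of 0, 3 and 9 d, among 2828 circRNAs tested. Of these, 1 was called, while 0.636% of all tested circRNAs were called, 15 higher and 3 lower; 2 of the 12 had an unadjusted p under 0.05. It was circRNA8655 of FAT3, a single exon of 3305 bp on the minus strand, with 4, 2 and 5 reads at 6 d and 0 in each of the 9 other libraries. Its log2 fold change was 5.17 (p 0.000201, edgeR adjusted p 0.0354), with reads in 3 of 3 libraries of 6 d. Set against a floor of 3 reads over the 9 other libraries together, its 11 reads at 6 d gave a ratio of 14.2. The floor covers counting error in the other libraries only, and the 11 reads are taken as exact, so the ratio is no lower bound.

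This call rested on 11 reads. It was lost when any 1 of the 12 libraries was left out, with edgeR adjusted p from 0.0611 without replicate 2 of 0 d to 0.294 without replicate 1 of 6 d. It was also lost with DESeq2, which called 0 circRNAs (log2 fold change 4.69, adjusted p 0.999); 7 of all circRNAs and 0 of the member-hosted ones had an unadjusted p under 0.05 there. The call of the FAT3 circRNA was lost as well with the replicate block and with no filter on counts. Of the tested circRNAs, 33 had reads at 6 d alone. Whether the circRNA of FAT3 followed the mRNA was not tested. CYR61 hosted circRNA9289, singled out after its reads were seen, with 0, 4 and 2 reads at 6 d and 0 elsewhere. Against the same floor these reads gave a ratio of 7.74, again with the 6 d reads taken as exact and so no lower bound. This circRNA was not called (log2 fold change 4.40, edgeR adjusted p 0.285), with reads in 2 of 3 libraries of 6 d.

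**Figure D5:**
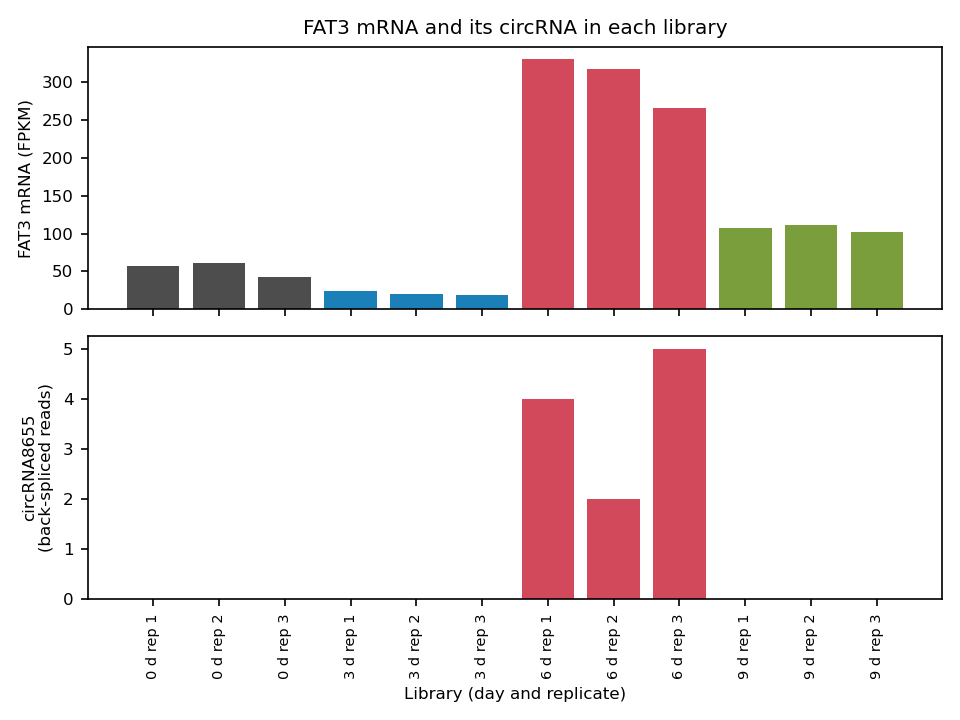
FAT3 in each of the 12 libraries by day: mRNA level in FPKM and back-spliced reads of circRNA8655. The reads are 4, 2 and 5 at 6 d and 0 in the 9 other libraries, and the mRNA is at 266 to 330.0 FPKM at 6 d.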

How the data were processed

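The authors deposited mRNA levels as FPKM and circRNAs as counts of back-spliced reads; the submitters' notes name Bowtie 0.12.2, HISAT2 2.0 and StringTie 1.3.0. FPKM were tested with limma 3.58.1 (trend, all 12 libraries, a mean per day) because the edgeR test in the study's methods needs counts and the mRNA table holds FPKM; its thresholds were kept. CircRNA counts with at least 5 reads were tested with edgeR 4.0.16 (quasi-likelihood), with DESeq2 1.42.0 as an alternative, in R 4.3.3; p-values were adjusted by Benjamini and Hochberg over all features tested. Figures were drawn with matplotlib 3.10.9 in Python 3.11.15. The steps were tested on simulated data. The members and gene lists were chosen with earlier results of these data known. Named genes were taken from the 15 members with a gene symbol and the highest ratio, the 10 most abundant, those in a list, the 3 on either side of the threshold, the 3 largest called rises and falls per comparison, and member-hosted circRNAs that were called or among the 5 with most reads. Other genes were named after their values were seen. The 12 columns of normalised circRNA levels and the lncRNA and miRNA tables were not used.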

Additional observations from a re-analysis of the deposited data

How the results depend on the processing

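The refits covered 25 mRNA fold changes, those given with a test and those of ACTC1 and TAGLN3 from 3 to 6 d. Of 460 refits, 456 kept their direction and call, 4 kept their direction alone and 0 reversed. The 4 were NAP1L5 (-0.92) and ITGA8 from 0 to 3 d (0.84) with a pseudocount of 1, ITGA8 without replicate 3 of 0 d (0.98) and ACTC1 with rescaled libraries (-0.96). With a pseudocount of 1, 18, 12 and 17 members were called in the comparisons of 3 d with 0 d, 9 d with 0 d and 9 d with 3 d. Leaving out 1 library gave 26 to 29, 16 to 20 and 28 to 31. A ratio of 1.2 chose 155 members and a ratio of 2 chose 28; leaving out 1 library, which can only relax the rule, chose 56 to 66. Of 216 refits of 18 list counts, 213 stayed within 1.5 times the reported count. The other 3 came with a pseudocount of 1: 9 genes of the transforming growth factor beta list (14 reported) and 9 ion channels and transporters (15 reported) from 3 to 6 d, and 3 of the latter (5 reported) from 6 to 9 d. The causes were not tested.

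Member-hosted circRNAs called were 0 with DESeq2 (7 of all circRNAs, 0 member-hosted, at an unadjusted p under 0.05), 0 with no filter on counts, 0 with at least 20 counts, where the FAT3 circRNA was not tested, 0 with the replicate block, and 0 to 0 on leaving out 1 library. For the FAT3 circRNA the edgeR adjusted p was 0.264 with no filter and 0.204 with the replicate block, and 0.044 when circRNAs of a host within 5 bp were summed, an alternative chosen after seeing the data, which kept the call. With the replicate block 28, 19 and 29 members were called. The replicate numbers paired nothing: of 18 pairs of libraries with 1 number on 2 days, correlations ran from -0.098 to 0.112 and 2 passed 0.1. Promoter motifs were not run, since no promoter sequences were at hand. The member-hosted circRNAs had a median of 2 reads, and the parts of sequencing depth and library preparation in this were not tested. The mRNA table gives no reads.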
